A study of Homo sapiens with 6 samples.

Results

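The BCL2 family of apoptosis regulators was followed in PC3 and PC3-DR cells through 9 transcript rows of the deposited mRNA table, out of 102731 rows in all. The rows were taken by identifier, namely 2 rows of BCL2 and 1 row each of BCL2L1, MCL1, BCL2L2, BAX, BAK1, BCL2L11 and BNIP3L. All 9 were present in the table and 0 were absent. PC3 is a human prostate cancer cell line, labelled here as sensitive to docetaxel, a taxane that stabilises microtubules and arrests cells in mitosis. PC3-DR was raised from PC3 by repeated docetaxel exposure with stepwise increases to 50 nM, was then held at 40 nM for 1 month, and is labelled as resistant. Each line gave 3 total RNA libraries. The labels do not say whether PC3-DR is a single clone, whether the drug was present at harvest, or whether the libraries of a line came from separate cultures, so p-values measure the spread between these libraries, which may be technical. Levels are given as FPKM, a read number scaled by transcript length and by the library total. No unit was stated with the values, and FPKM was taken as the unit. Values of a line are given in the order of its replicates 1 to 3.

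BCL2 family proteins meet at the outer mitochondrial membrane and decide whether it is opened. Pro-survival members (BCL2, BCL-XL from BCL2L1, MCL1 and BCL-W from BCL2L2) hold the effectors BAX and BAK in check, BH3-only proteins such as BIM from BCL2L11 release or activate the effectors, and open effectors let cytochrome c out and start the caspases. In cells held in mitosis by taxanes, MCL1 protein is lost and BCL2 and BCL-XL become phosphorylated, events that mRNA levels do not report.

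The 6 libraries were not alike. Library totals inferred from the values, taken as FPKM, were between 14410000 and 16186000 reads in 5 libraries and 43153000 in PC3-DR replicate 1. That library also listed the fewest rows at 1 FPKM or more, 14943, against between 22650 and 29399 in the others. Over the rows at 1 FPKM or more in at least 3 libraries, its median level was 0.676 FPKM, against between 1.32 and 1.67 FPKM in the others. Its levels thus lay lower as a whole. PC3 replicate 3 had the fewest rows above 0, with 51.7%, against between 62.3% and 68.6% in the other 5. The symbols used here are those under which the identifiers were chosen, since the table lists no gene names and neither name table at hand held any of its identifiers (0 matched). For the same reason the other transcripts of these genes, the 24 further apoptosis genes that were listed (among them BID, BBC3, PMAIP1 and APAF1) and markers of the cell line could not be looked up and were not analysed here.

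Between the lines, none of the 4 family rows that reached 1 FPKM in at least 3 libraries passed the test. The test was limma on log2(FPKM + 1), with p-values adjusted over all rows that reached this level by Benjamini-Hochberg and a threshold of 0.05. The 4 were the BCL2 row ENST00000398117 and the rows of BCL2L1, BCL2L2 and BNIP3L. Of the 24937 tested rows in all, 1 passed, or 0.00401%. At an unadjusted p under 0.05 the limma fit gave 0 of the 4 family rows and 6.1% of all tested rows. The other 5 rows, of MCL1, BAX, BAK1, BCL2L11 and the second BCL2 row, reached 1 FPKM in fewer than 3 libraries and were left out of this test. A limma fit over all rows without the level filter called 0 of the 9 family rows and 0 rows (0%) of the table. At an unadjusted p under 0.05 that limma fit gave 0 of 9 and 2.93%.

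BCL2 is the founding pro-survival gene, and of its 2 rows ENST00000398117 held nearly all of the signal. This row had levels of 1.56, 1.46 and 0.809 FPKM across the PC3 libraries and of 0.767, 1.35 and 0.979 FPKM across the PC3-DR libraries. The groups overlapped, with means of 1.27 ± 0.41 and 1.03 ± 0.29 FPKM (SD, n = 3 each). The difference of PC3-DR minus PC3 on the log2(FPKM + 1) scale was -0.16 ± 0.35 (SE), with a 95% interval from -0.93 to 0.61 and an adjusted p of 0.934 in limma. Between 87 and 247 reads on an inferred length of 7461 nt lay behind each value, so the spread inside PC3 exceeded counting error. The exact Poisson 95% interval of PC3 replicate 3, 0.648 to 0.998 FPKM, lay below those of replicates 1 and 2, which began at 1.34 and 1.24 FPKM.

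The second BCL2 row, ENST00000333681, was listed at 0 in 5 libraries and at 0.0578 FPKM in PC3 replicate 1. The 2 rows summed to 1.61, 1.46 and 0.809 FPKM across the PC3 libraries, and the sum in PC3-DR equalled the level of ENST00000398117. PC3-DR minus PC3 came to -0.17 for the log2(FPKM + 1) of the sum (two-sided exact permutation p = 0.4, where 3 against 3 allows no p below 0.1).

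BCL2L1, whose long form BCL-XL is a pro-survival protein of many carcinoma lines, had the largest spread around the line means of the tested family rows. ENST00000307677 had levels of 2.23, 3.82 and 0.0266 FPKM across the PC3 libraries and of 1.27, 3.11 and 0 FPKM across the PC3-DR libraries. Each line thus held 2 libraries above 1 FPKM and, as replicate 3, 1 library at or near 0. In reads on an inferred 2610 nt these were 94, 146 and 1 in PC3 and 143, 130 and 0 in PC3-DR. The 0 of PC3-DR replicate 3 allows up to 0.0736 FPKM at the floor of 3 reads used here for a value of 0, and the two-sided exact Poisson 95% interval ends higher, at 0.0905 FPKM. Both limits cover counting error only. The difference was -0.26 ± 0.65 (SE) with a 95% interval from -1.70 to 1.18 (adjusted p = 0.941 in limma), and it turned to 0.21 without PC3 replicate 2 and to 0.28 without PC3-DR replicate 3. The spread around the line means was larger than in 97.2% of tested rows. The low replicate 3 of both lines enters this spread.

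**Figure D1:**
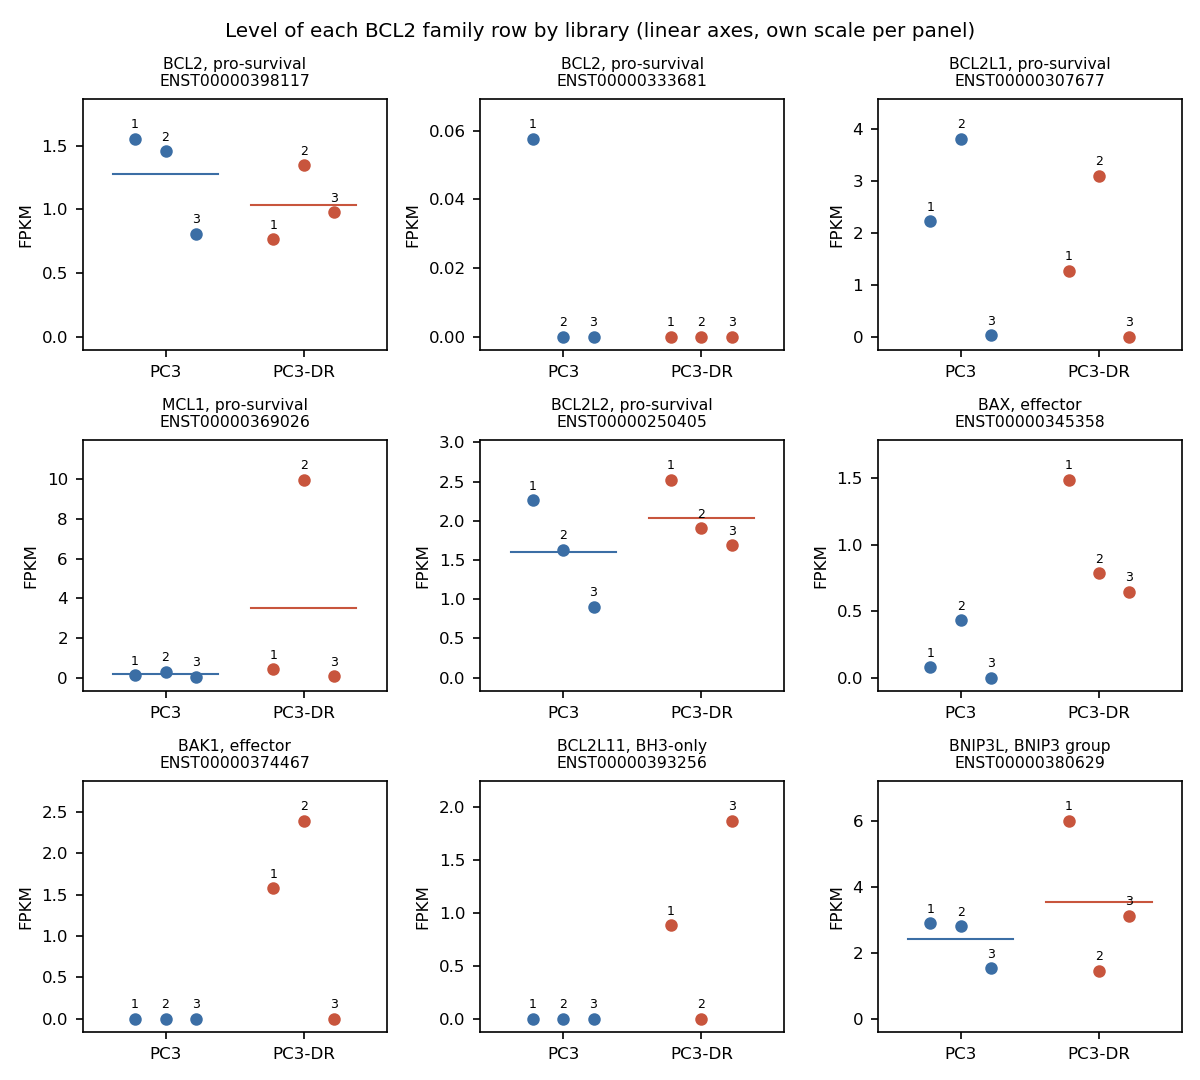
FPKM (linear axes, each panel with its own scale) of the 9 BCL2 family rows in the 3 PC3 and 3 PC3-DR libraries. Points are libraries with their replicate number, and lines are group means, drawn only for rows above 0 in all 6 libraries. BAX is the only panel in which the points of the lines do not overlap, and MCL1 has 1 high point at 10.0 FPKM.

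MCL1, a short-lived pro-survival protein, was high in a single library. Levels of ENST00000369026 were 0.126, 0.296 and 0.053 FPKM across the PC3 libraries, while PC3-DR gave 0.407, 10.0 and 0.0652 FPKM. PC3-DR replicate 2 lay far above the rest, and the other 2 PC3-DR libraries lay on either side of the highest PC3 value. These levels came from 8, 17 and 3 reads in PC3 and 69, 630 and 4 reads in PC3-DR on an inferred 3932 nt. The exact Poisson 95% interval of PC3-DR replicate 2 was 9.23 to 10.8 FPKM, while that of PC3-DR replicate 3 ended at 0.167 FPKM, so libraries of 1 line differed beyond counting error. In the fit over all rows the difference was 1.14 ± 0.78 (SE), with a 95% interval from -0.61 to 2.90 and an adjusted p of 0.774 in limma, and it was 0.09 without PC3-DR replicate 2.

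BCL2L2, which encodes the pro-survival protein BCL-W, was steadier. Levels of ENST00000250405 were 2.26, 1.63 and 0.905 FPKM across the PC3 libraries, while PC3-DR gave 2.53, 1.90 and 1.69 FPKM. The groups overlapped, with means of 1.60 ± 0.68 and 2.04 ± 0.44 FPKM (SD, n = 3 each). Behind these values lay between 47 and 393 reads on an inferred 3605 nt. The difference was 0.25 ± 0.36 (SE), with a 95% interval from -0.54 to 1.04 and an adjusted p of 0.912 in limma.

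BAX, an effector that forms pores in the outer mitochondrial membrane, was the family row whose lines did not overlap. ENST00000345358 had levels of 0.0779, 0.431 and 0 FPKM across the PC3 libraries and of 1.49, 0.787 and 0.646 FPKM across the PC3-DR libraries. All 3 PC3-DR values lay above the highest PC3 value. Groups did not overlap in 1 of the 9 family rows against 7.55% of all rows, and with PC3-DR higher in 3.28% of all rows. Among the 4 tested family rows the groups did not overlap in 0, against 11.1% of tested rows.

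The BAX levels rested on few reads. On an inferred 793 nt they were 1, 5 and 0 in PC3 and 51, 10 and 8 in PC3-DR, 6 and 69 in sum. The exact Poisson 95% interval of PC3-DR replicate 1, 1.11 to 1.96 FPKM, lay above the intervals of all 3 PC3 libraries, the highest of which, in replicate 2, ran from 0.140 to 1.01 FPKM. The intervals of PC3-DR replicates 2 and 3, which began at 0.377 and 0.279 FPKM, overlapped with it. In the fit over all rows the difference was 0.75 ± 0.39 (SE), with a 95% interval from -0.13 to 1.63 (adjusted p = 0.774, unadjusted p = 0.0862 in limma). Without PC3-DR replicate 1, the library with the largest inferred total, it was 0.57.

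BAK1 encodes BAK, the other effector held by the family. Every PC3 library listed ENST00000374467 at 0, while PC3-DR gave 1.57, 2.39 and 0 FPKM. The 2 PC3-DR libraries with signal held 145 and 82 reads on an inferred 2136 nt. At this length the 0 in each PC3 library allows up to between 0.0868 and 0.0975 FPKM at the floor of 3 reads, and the two-sided exact Poisson 95% intervals end between 0.107 and 0.120 FPKM. PC3-DR replicate 3 was at 0 like the PC3 libraries, so the lines overlapped. The difference in the fit over all rows was 1.04 ± 0.50 (SE), with a 95% interval from -0.08 to 2.17 (adjusted p = 0.774, unadjusted p = 0.0657 in limma).

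BCL2L11 encodes BIM, a BH3-only protein that binds all pro-survival members. Every PC3 library listed ENST00000393256 at 0, while PC3-DR gave 0.884, 0 and 1.88 FPKM. It shared with BAK1 a value of 0 throughout PC3 and in 1 PC3-DR library, but that library was replicate 2 for BCL2L11 and replicate 3 for BAK1. Behind its 2 values above 0 lay 194 and 149 reads on an inferred 5086 nt. At this length the 0 of each PC3 library allows up to between 0.0364 and 0.0409 FPKM at the floor of 3 reads. The two-sided exact Poisson 95% intervals end higher, between 0.0448 and 0.0503 FPKM, and both limits cover counting error only. The difference in the fit over all rows was 0.81 ± 0.43 (SE), with a 95% interval from -0.16 to 1.79 (adjusted p = 0.774, unadjusted p = 0.0929 in limma). Of all rows, 5.55% were at 0 in all PC3 libraries and above 0 in at least 2 PC3-DR libraries, as these 2 of the 9 family rows were, and 2.24% showed the mirrored pattern, which 0 of the 9 did. PC3-DR replicate 1 had the largest inferred total and, with 68.6%, the most rows above 0. PC3 replicate 3, with 51.7%, had the fewest. The part of either library in these shares was not tested.

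**Figure D2:**
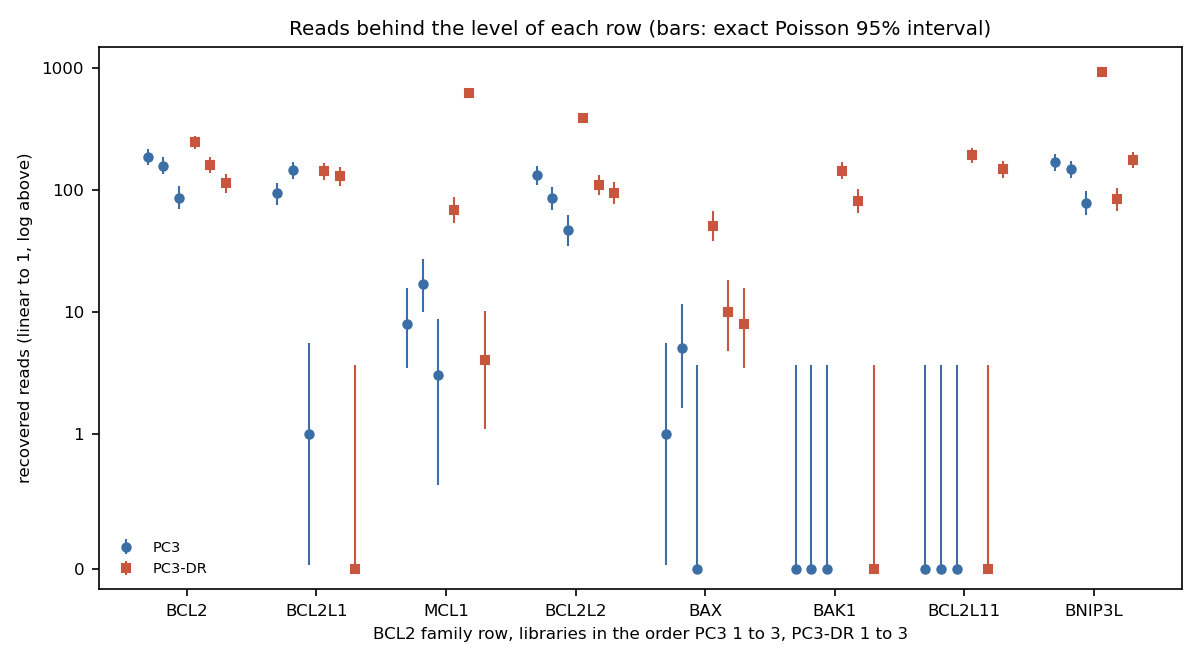
Reads recovered from the deposited values for 8 family rows (BCL2 is ENST00000398117), linear up to 1 and logarithmic above, with exact Poisson 95% intervals. From left to right each row shows PC3 replicates 1 to 3 (circles) and PC3-DR replicates 1 to 3 (squares), and BAX values rest on 51 reads or fewer.

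BNIP3L, also called NIX, is a mitophagy receptor related to BNIP3 that is counted with the family for its BH3-like stretch. It was the highest family row in 4 of 6 libraries. ENST00000380629 had levels of 2.89, 2.80 and 1.52 FPKM across the PC3 libraries and of 6.01, 1.45 and 3.12 FPKM across the PC3-DR libraries. PC3-DR held both the highest and the lowest library, and the means were 2.40 ± 0.77 and 3.53 ± 2.31 FPKM (SD, n = 3 each). Between 79 and 936 reads on an inferred 3610 nt lay behind these values. The difference was 0.31 ± 0.44 (SE), with a 95% interval from -0.68 to 1.29 (adjusted p = 0.912 in limma), and it was -0.07 without PC3-DR replicate 1.

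Of the 9 family rows, 6 had a difference above 0 and 3, both BCL2 rows and BCL2L1, one below 0 in the fit over all rows. Their median difference was 0.31, against -0.01 over all 102731 rows. The levels compared are unlike, since 21.6% of all rows had a mean of at least 1 FPKM, as had 5 of the 9 family rows. Differences of rows near 0 stay small on this scale, and BAK1 and BCL2L11, at 0 in every PC3 library, could not lie below 0. Single libraries moved the family median of 0.31, to 0.10 without PC3 replicate 3 and to 0.14 without PC3-DR replicate 1. Without PC3 replicate 1 it was 0.57, but over 8 rows, since ENST00000333681 was then at 0 throughout. That value is not a median of the same rows, and the loss of this row raises it. Over the 4 tested family rows alone the median was 0.047, and it turned to -0.14 without PC3 replicate 3 and to -0.066 without PC3-DR replicate 1. Rescaling by the median of ratios divided each library by a common factor, 0.59 for PC3-DR replicate 1 and between 1.08 and 1.29 for the others. This rescaling moved the median of the 24937 tested rows from -0.13 to 0.02. It moved the differences to 0.02 for BCL2 (ENST00000398117), 0.00 for BCL2L1, 0.49 for BCL2L2 and 0.59 for BNIP3L, with an adjusted p of 0.823 or more in limma. After this rescaling the differences of MCL1, BAX, BAK1 and BCL2L11 in the fit over all rows were 1.20, 0.89, 1.17 and 0.89, each with an adjusted p of 0.748 in limma. In that fit the median of the 9 family rows was 0.59, against 0.04 over all rows.

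**Figure D3:**
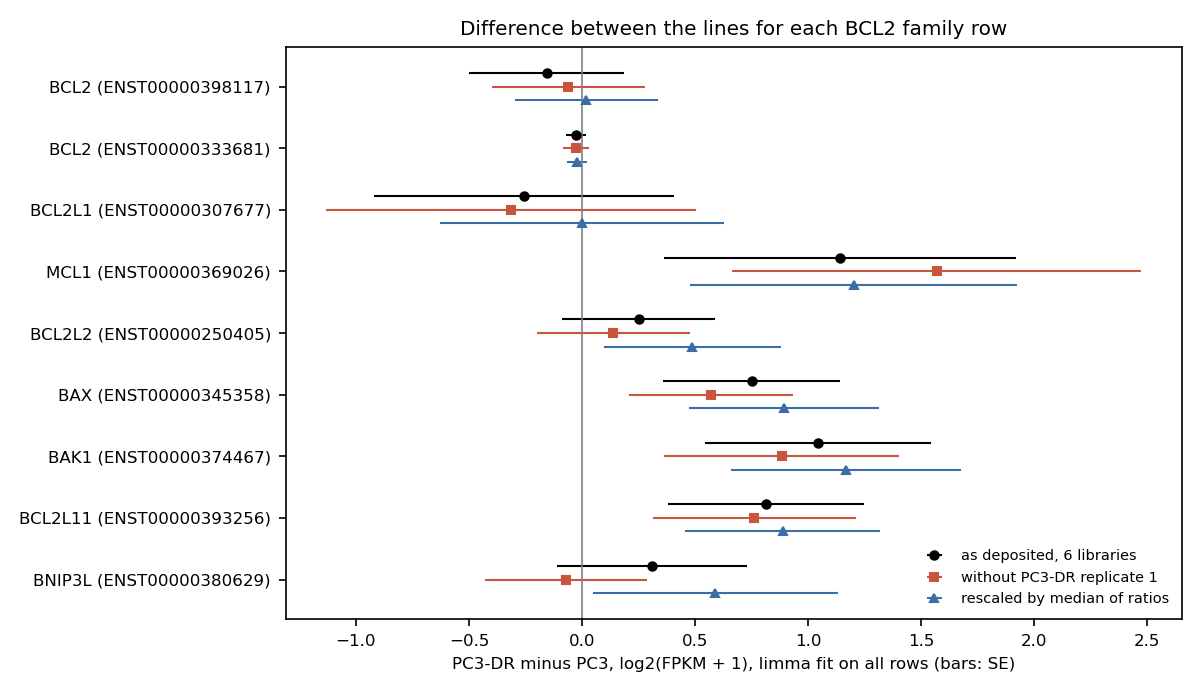
Difference of PC3-DR minus PC3 on the log2(FPKM + 1) scale for each family row in the limma fit over all rows, with SE bars, as deposited (circles), without PC3-DR replicate 1 (squares) and rescaled by the median of ratios (triangles). BNIP3L moves from 0.31 to -0.07 without PC3-DR replicate 1. BCL2L2, BAX, BAK1, BCL2L11 and MCL1 lie above 0 in all 3 versions. BAK1 and BCL2L11, at 0 in every PC3 library, could not fall below 0 in any version, nor could BAX with a library left out.

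In order of the median level over the 6 libraries the family ran from BNIP3L (2.85 FPKM) through BCL2L2 (1.80), BCL2L1 (1.75), BCL2 ENST00000398117 (1.16), BAX (0.539) and MCL1 (0.211) to BAK1, BCL2L11 and BCL2 ENST00000333681, each with a median of 0 FPKM. Ranges overlapped in all 8 neighbouring pairs of this order. Of the 36 pairs of rows, 9 kept the same order in all 6 libraries. BCL2L2 lay above BCL2 ENST00000398117 in 6 of 6 libraries. BCL2L1 lay above BCL2 in the first 2 replicates of each line, with ratios to the BCL2 sum of 1.38 and 2.62 in PC3 and 1.65 and 2.31 in PC3-DR, and below it in replicate 3 of both lines.

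Each row was also placed among all rows of its own library, a scale that needs no library total but shifts with the share of rows above 0, which ran from 51.7% to 68.6%. On it BNIP3L was at or above 83.4% to 99.0% of rows and BCL2L2 at or above 75.9% to 96.2%. BCL2 ENST00000398117 held a narrow band, from 71.6% to 84.2%. MCL1 ran from 37.4% in PC3-DR replicate 3 to 99.8% in PC3-DR replicate 2. BAX was at 40.2% and 55.1% in PC3 replicates 1 and 2, with PC3 replicate 3 listed at 0, and at 91.4%, 68.1% and 62.0% in PC3-DR replicates 1 to 3. The higher PC3-DR ranks restate the same values and add no support to them. In PC3-DR replicates 2 and 3 they rest on 10 and 8 reads, against 5 in PC3 replicate 2.

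**Figure D4:**
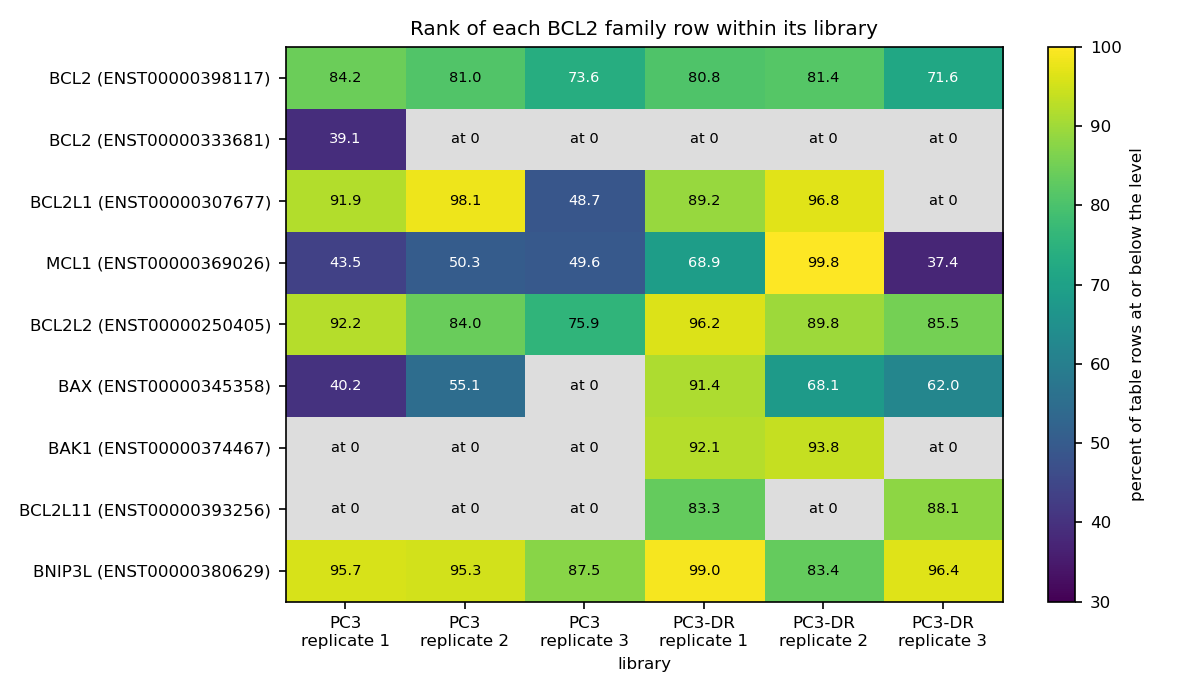
Percent of the 102731 rows at or below the level of each family row within each library, from 30% (dark) to 100% (light). Grey cells are values listed at 0, which make up 15 of the 54 cells, 9 in PC3 and 6 in PC3-DR.

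Summed by role, the effector rows BAX and BAK1 gave 0.0779, 0.431 and 0 FPKM across the PC3 libraries, against 3.06, 3.18 and 0.646 FPKM across PC3-DR. The 5 pro-survival rows gave 6.23, 7.21 and 1.79 FPKM across the PC3 libraries, against 4.97, 16.4 and 2.73 FPKM across PC3-DR. The effector sum amounted to 1.25%, 5.98% and 0% of the pro-survival sum in PC3 and to 61.6%, 19.5% and 23.7% in PC3-DR. In PC3 these percentages rest on 6 BAX reads in sum. The pro-survival sums under them varied within each line, from 1.79 to 7.21 FPKM in PC3 and from 2.73 to 16.4 FPKM in PC3-DR. Since BAX did not overlap between the lines and BAK1 was at 0 in every PC3 library, the effector sum could not overlap either, and its order restates that of BAX. In PC3-DR replicate 3 the sum was BAX alone, on 8 reads. The pro-survival sums of the lines overlapped, and MCL1 alone made up 47.6% of the summed family level in PC3-DR replicate 2. The sums hold 1 row per gene apart from BCL2. The sums and the percentages were formed after the values were known and carry no test.

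Among the 6 rows above 0 in at least 4 libraries, the pair most alike over the 6 libraries was BCL2 ENST00000398117 and BCL2L1 (Pearson r = 0.76 on log2(FPKM + 1)), both low in replicate 3 of PC3. The pair least alike was MCL1 and BNIP3L (r = -0.44). These are the ends of 15 pairs over 6 libraries that share their totals, and they are given as a description.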

How the data were processed

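The authors deposited 1 normalized mRNA table with a column per library named by sample title. 0 columns belonged to no sample. The header names no unit, and the deposited values were taken as FPKM. They fall on whole reads, but so would values scaled to a common sum per library, so the unit is not settled. Under such a scaling the inferred totals would not be read totals. In all of 2000 sampled rows (100%), a whole length between 200 and 60000 nt gave a whole read number in each library, within 0.1 of a read at most. Totals and lengths are inferred, and whether reads or fragments were counted is not known. The lengths of BAK1 and BCL2L11 rest on 2 values each, where rounding alone would give on average 0.018 and 0.12 lengths as short, and that of BCL2 ENST00000333681 was not determined. The submitters' processing notes list the aligners HISAT2 and TopHat2, the assembler StringTie, the counter featureCounts and the packages limma and DESeq, give no roles, and name the mouse build mm9, so no coordinates are printed. The strand setting was not given in the sources used here, nor was the annotation. Reads shared between transcripts of a gene may have been divided among rows.

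Rows reaching 1 FPKM in 3 or more libraries entered a two-sided limma fit (version 3.58.1, R 4.3.3) of log2(FPKM + 1) on group alone, with an intensity trend. A second fit took all rows. Fold changes on this scale understate those of low rows. Decoding and tests were tried on simulated data. Exact permutation tests used SciPy 1.17.1 (Python 3.11.15). At most 0.0015% of values above 0 were equal between libraries, so all 6 were kept. All 9 rows are named, by rule. The members, lists and settings were chosen with earlier results of these data known.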

Additional observations from a re-analysis of the deposited data

How the results depend on the processing

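Over 102 alternative fits of single family rows (pseudocounts of 0.1 and 5, no trend, rescaling by the median of ratios, a replicate block, and each library left out in turn; for the 4 tested rows also no level filter), 0 were called in limma, with adjusted p-values between 0.748 and 1.00. The sign changed in 4 of them, but many of these fits could not change it. Leaving out the trend, adding the replicate block or dropping the level filter returned the same difference. BAK1, BCL2L11 and BCL2 ENST00000333681, at 0 throughout a line, could not reverse under any setting. BAX, whose lines did not overlap, could not reverse with a library left out. BCL2L1 turned to 0.21 and 0.28 without PC3 replicate 2 or PC3-DR replicate 3 (range without single libraries -0.91 to 0.28), BNIP3L to -0.071 without PC3-DR replicate 1 (range -0.071 to 0.69) and BCL2 ENST00000398117 to 0.019 after rescaling, where the 2 BCL2 rows summed gave 0.0089 (exact permutation p = 1). The cause was not tested. At an unadjusted p under 0.05 in limma stood BAK1 after rescaling (with 3.26% of all rows) and without PC3-DR replicate 3 (3.98%), BAX without the trend (5.04%) and BCL2L11 without PC3-DR replicate 2 (3.94%). For BAK1 and BCL2L11 the library left out was the PC3-DR library listed at 0. With a pseudocount of 0.1 the differences of BAX, BAK1 and BCL2L11 were 2.27, 2.90 and 2.53, and with 5 they were 0.21, 0.32 and 0.23.

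The single call in the table became 0 with either pseudocount, no filter, a filter of 5 FPKM, rescaling, no trend or the replicate block (between 57 and 3008 at an unadjusted p under 0.05 in limma), and between 0 and 1 without single libraries. No family row passed the filter of 5 FPKM, and without PC3 replicate 1 ENST00000333681 was at 0 throughout, so neither gave a value. The replicate block called 0 family rows. Under it the residual SD of BCL2L1, low in replicate 3 of both lines, went from 1.09 to 0.167, larger than in 10.2% instead of 97.2% of tested rows, and its difference was -0.26 ± 0.36 (SE, adjusted p = 0.900 in limma). Same-numbered libraries deviated together at correlations of 0.19, -0.004 and 0.09, and differently numbered ones at between -0.18 and 0.11. The 0.19, of the replicates 1, was the highest of these, but the ranges overlapped. These values do not settle whether the libraries were paired, and the numbers were not taken to pair them. Low read numbers limit BAX, MCL1 and the values listed at 0.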
